A study of Rattus norvegicus with 18 samples.

Results

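The genes described here are 9 members of the NRF2 antioxidant programme, Nqo1, Hmox1, Txnrd1, Srxn1, Gsr, Me1, Nfe2l2, Mafg and Sqstm1, followed in a rat β-cell line that was made to express a folding-deficient proinsulin. They were found as the probe sets that the annotation of the array assigns to exactly 1 of these genes. The array holds 14217 genes named in this way. The members had 17 probe sets among 31042, of which 13 had enough signal to be tested, and 8 of the 9 genes were tested through the probe set with their highest mean signal. The exception was Hmox1, whose only probe set lay below the signal filter. No member passed the adjusted threshold at 24 h, 48 h or 5 days. On the same arrays 7 of 12 ER stress markers were higher at 24 h and 12 of 12 at 48 h. The shares of all probe sets tested that were higher were 0.193% and 2.33%. These markers, like the members, were chosen with earlier results of these data known. Nqo1 came nearest to the threshold, with mean ratios of 0.685 at 24 h and 0.649 at 48 h.

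NRF2, the product of Nfe2l2, is a transcription factor that the adaptor KEAP1 normally holds in the cytoplasm and hands to a ubiquitin ligase for degradation. Electrophiles and oxidants modify KEAP1, NRF2 then accumulates, pairs with a small MAF protein and binds antioxidant response elements in front of genes for detoxification, glutathione and thioredoxin enzymes and NADPH supply. In the unfolded protein response the kinase PERK has been described to phosphorylate NRF2, and PERK also raises translation of ATF4, a factor that shares some targets with NRF2. β-cells are known for low levels of several antioxidant enzymes.

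INS-1 is a rat insulinoma line. In clone #4S2, a single clone carrying pTet-ON and sorted for high EGFP after induction, doxycycline switches on Ins2(C96Y)-EGFP, a mouse insulin that lacks a cysteine needed for a disulfide bond. Cultures were given doxycycline at 2 µg/ml and harvested after 24 h, after 48 h or on day 5, and were compared with untreated cultures of the same clone and time, with 3 arrays, 1 from each independent experiment, in each of the 6 groups. All arrays are from this clone, so an effect of doxycycline itself and an effect of the mutant insulin cannot be told apart. The values are linear signal intensities from Rat Genome 230 2.0 arrays, quantile normalized here, and their precision is limited by the number of arrays. A lower signal in a culture does not tell fewer expressing cells from less RNA in each cell.

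The 18 arrays had been scaled to a like mean before deposit, with a 2% trimmed mean between 500.14 and 500.17. Of 12 β-cell markers, the 10 with a probe set were all in the tested range, whereas none of the 5 fibroblast, 5 acinar cell and 5 macrophage markers was. At 48 h 1 of the 10 β-cell markers was lower and none higher by the test described below, and none passed at 24 h or 5 days. Among 12 ER stress markers 7 were higher at 24 h, 12 at 48 h and none at 5 days, and among 12 targets of ATF4 and CHOP none passed at 24 h, 9 were higher at 48 h and none passed at 5 days. For example, the log2 ratios of Sdf2l1, a chaperone cofactor of the ER, were 2.28, 1.80 and 1.90 at 24 h and 1.79, 2.01 and 1.76 at 48 h in experiments 1, 2 and 3. Those of Dnajb9, an ER co-chaperone, were 0.89, 0.99 and 1.10 at 24 h and 1.16, 1.56 and 1.18 at 48 h.

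A pair and a library stood apart at 5 days. In experiment 1 the median log2 ratio of the ER stress markers was -1.49, against 1.58 and 1.05 in experiments 2 and 3, so the library labelled doxycycline had the lower levels there and went against its label. In experiment 2 the doxycycline library had a GAPDH 3′ to 5′ probe ratio of 2.91, while the other 17 libraries had 1.05 to 1.19. The targets of ATF4 and CHOP were not uniform at 5 days either, with median log2 ratios of -0.66, -1.35 and 0.89. Trib3, a pseudokinase among them, had -1.43, -2.77 and 2.94, and Ddit3, which encodes CHOP, had -1.31, -0.81 and 1.25. The mean ratios of the members at 5 days are therefore given as labelled, without each experiment, and with the labels of experiment 1 exchanged, while counts at 5 days are as labelled unless another choice is named. No probe set passed the test at 5 days under any of these choices. The median log2 ratio of the ER stress markers was 0.30 as labelled, 1.26 without experiment 1, -0.33 without experiment 2, 0.00416 without experiment 3 and 1.32 with the exchange.

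Promoter windows, 250 bases before to 50 after an annotated start, were found in RefSeq (assembly GRCr8) for 7 of the 9 members. They are shown because antioxidant response elements are how NRF2 recognises its targets. Each window was searched on both strands for TGACNNNGC, the core of such an element, in which N is any base. It was present in 1 of the 2 windows of Txnrd1, in the windows of Me1 and Nfe2l2, and in 12.1% of all 33469 promoter windows. Capitals mark the match, each sequence is written 5′ to 3′ on the strand of its gene, and in Txnrd1 the capitals are the reverse complement of the motif. The Nqo1 bases are those before its start, with no match in the window, and are shown because Nqo1 had the largest differences. A match or its absence in these letters is a description only. Bases outside the windows were not searched, so the absence of a match does not mean that a gene lacks such an element. The positions are chr7:22755944-22756012, chr8:96540373-96540441, chr3:81028950-81028971 and chr19:52220268-52220517, all on the minus strand. The first, second and last lie before the annotated start of the gene, and the Nfe2l2 stretch lies within the 50 bases after its start.
Txnrd1: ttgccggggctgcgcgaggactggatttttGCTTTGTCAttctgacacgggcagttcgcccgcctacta
Me1: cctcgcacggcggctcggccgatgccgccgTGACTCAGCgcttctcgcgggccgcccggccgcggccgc
Nfe2l2: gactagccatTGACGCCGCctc
Nqo1: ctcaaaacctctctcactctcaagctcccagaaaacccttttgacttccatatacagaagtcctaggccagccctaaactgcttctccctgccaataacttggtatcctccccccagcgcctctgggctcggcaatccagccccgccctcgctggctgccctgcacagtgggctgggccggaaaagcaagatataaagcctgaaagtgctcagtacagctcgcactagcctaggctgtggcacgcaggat

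The first question was whether any member differed between doxycycline and control at a given time. For each time, limma was fitted to the log2 signals of the 6 arrays with the 3 experiments as blocks, over 15521 probe sets. Calls were made at a Benjamini-Hochberg adjusted p under 0.05. At 24 h none of the 8 tested members was higher and none lower, where 0.193% of all probe sets were higher and 0.0129% lower. After 48 h of doxycycline the members again gave 0 higher and 0 lower, where 2.33% of all probe sets were higher and 1.19% lower. At 5 days the counts were 0 and 0 for the members and 0% and 0% for all probe sets. Before adjustment 172 probe sets passed upwards and 213 downwards at 5 days. That is fewer than an unadjusted p under 0.05 would give with no difference at all. At an unadjusted p under 0.05, Nqo1, Srxn1 and Gsr were lower at 24 h, 3 of 8 against 6.94% of all probe sets, and none was higher, against 7.75%. At 48 h Nqo1 was lower, 1 of 8 against 12.5%, and none was higher, against 12.2%. At 5 days no member passed upwards or downwards, against 1.11% and 1.37%. In the order of the times, the 8 members had median log2 ratios of -0.16, -0.08 and 0.15, beside -0.01, -0.01 and 0.03 over all probe sets tested. The 5-day median of the members was 0.12 without experiment 1, 0.07 without experiment 2, 0.26 without experiment 3 and -0.03 with the labels of experiment 1 exchanged. By the study's rule of size, a 2-fold ratio in either direction in 2 or more experiments, no member qualified at any time. Nqo1 at 5 days as labelled had ratios of 1.99 and 2.61 in experiments 1 and 2, the second from the library with the high GAPDH 3′ to 5′ ratio. Both depended on the normalization. As deposited, these signals were 290 and 187 with doxycycline and 151 and 100 in controls, less than 2-fold apart in each experiment. This rule was met upwards by 0.29%, 0.509% and 0.296% of all probe sets at 24 h, at 48 h and at 5 days, and downwards by 0.0709%, 0.187% and 0.438%.

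The intervals give the sizes of difference that these arrays leave possible. Among the tested members the highest upper limit of a 95% interval, taken for each gene alone, was a 1.21-fold increase at 24 h and a 1.35-fold increase at 48 h, both for Mafg. The lowest lower limit was a ratio of 0.607 at 24 h and 0.513 at 48 h, both for Nqo1. At 5 days the intervals were wider, and that of Nqo1 reached 2.99-fold as labelled, 2.25-fold to 3.88-fold with 1 experiment left out and 2.58-fold with the exchange. Standard errors of the log2 ratio ran from 0.0685 (Me1) to 0.107 (Gsr) at 24 h, from 0.0746 (Me1) to 0.131 (Nqo1) at 48 h and from 0.170 (Nfe2l2) to 0.315 (Nqo1) at 5 days.

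**Figure D1:**
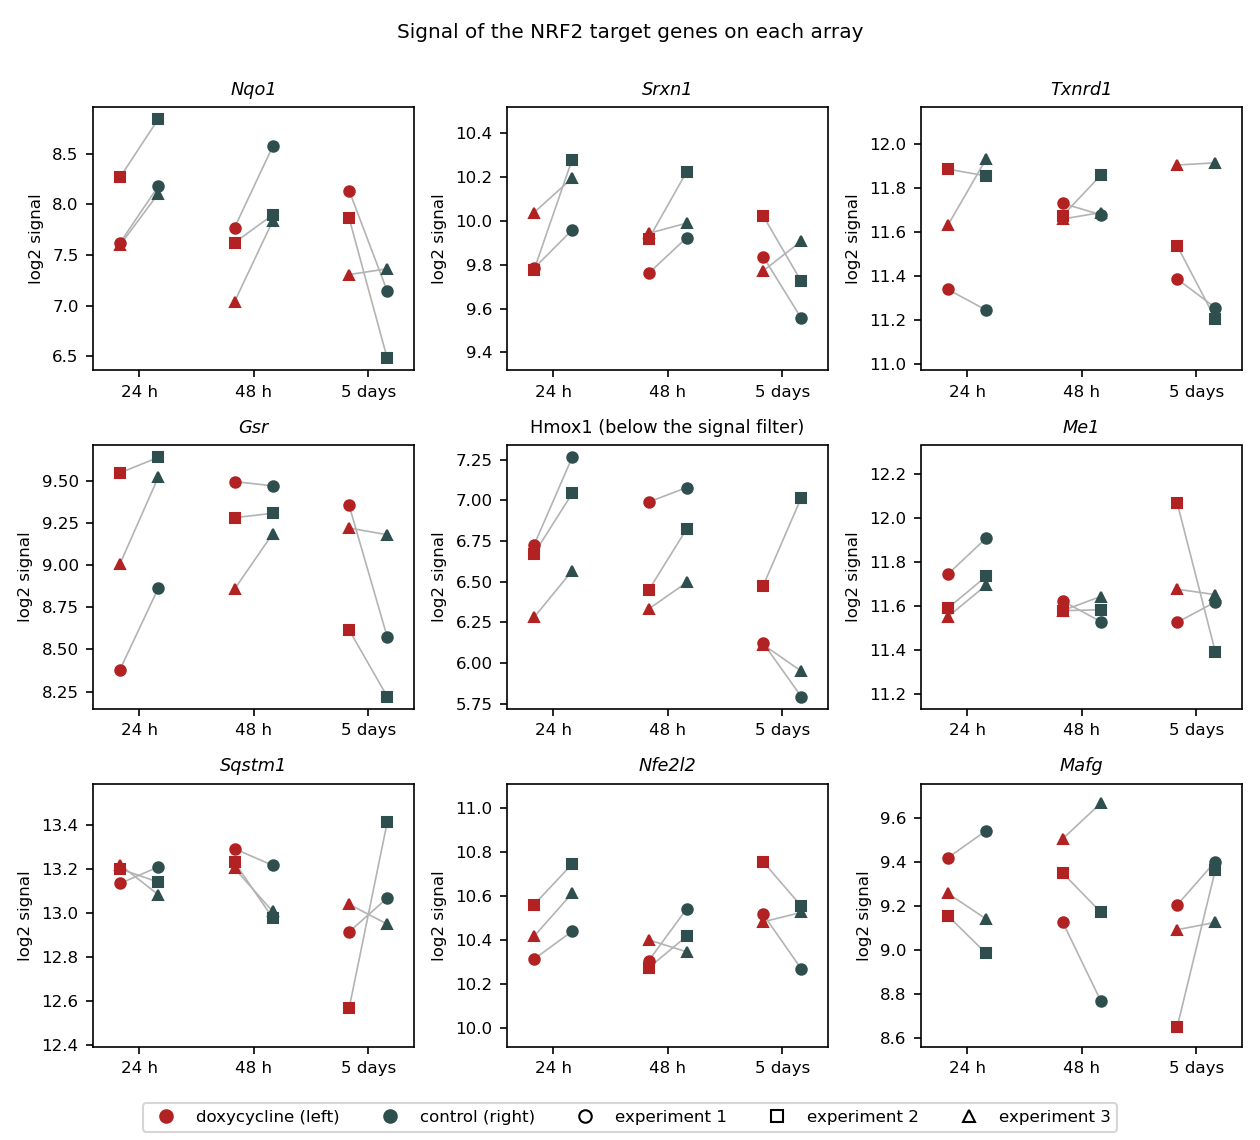
Log2 signal of the 9 genes on each of the 18 arrays, with doxycycline left and control right at each time and grey lines joining the arrays of an experiment. In the Nqo1 panel all 6 lines at 24 h and 48 h go up to the control, and in the Gsr panel the 3 lines at 24 h go up and the 3 at 5 days go down.

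Nqo1 encodes NAD(P)H quinone dehydrogenase, which reduces quinones and is widely used as a readout of NRF2 activity. At 24 h its signals were 197, 308 and 194 in doxycycline-treated cells, against 289.5, 458 and 275 in control cells. The groups overlapped, with experiment 2 high in both conditions, but within each experiment the doxycycline array was the lower one. The log2 ratios of the 3 experiments were -0.56, -0.57 and -0.51, with a mean of -0.55 (SE 0.0695, 95% interval -0.72 to -0.37) and an adjusted p of 0.0646 by limma. At 48 h the signals were 218, 197 and 131 with doxycycline and 381, 238 and 229 in control cells. All doxycycline arrays then lay below all control arrays. This held for 1 of the 8 tested members at 48 h and for none at 24 h, against 10.8% and 3.72% of all probe sets. The log2 ratios were -0.80, -0.27 and -0.80, with a mean of -0.62 (SE 0.131, 95% interval -0.96 to -0.29) and an adjusted p of 0.0750.

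Whether Nqo1 passed at 24 h and 48 h depended on the arrays in the fit and on the set of tests. With the 12 arrays of 24 h and 48 h in 1 fit, the adjusted p of Nqo1 was 0.0174 at 48 h and 0.0713 at 24 h, and it was the only member lower at 48 h in that fit. The same fit called 4.73% of all probe sets lower at 48 h and 0.29% at 24 h. With the median over the probe sets of each gene, which leaves fewer tests, its adjusted p at 24 h was 0.0479. Nqo1 has a single probe set, so its log2 ratio stayed at -0.55 there. The share of all genes called lower under that setting is not given here. Leaving out a single experiment gave means of -0.57 to -0.53 at 24 h and -0.80 to -0.54 at 48 h, with adjusted p of 0.248 to 0.290 and 0.0923 to 0.221.

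Hmox1 encodes heme oxygenase, which opens the heme ring and is a strongly inducible stress gene. Its single probe set was dim, with signals of 106, 102 and 77.7 in doxycycline-treated cells and 154, 132 and 94.8 in control cells at 24 h. At 48 h it read 127, 87.2 and 80.5 with doxycycline and 135, 113 and 90.2 without. Every doxycycline array was below the control array of its experiment, although the groups overlapped at each time. When all probe sets were tested with no filter, the mean log2 ratio was -0.40 at 24 h (SE 0.0823, adjusted p 0.594 by limma) and -0.21 at 48 h (SE 0.0974, adjusted p 0.509).

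Txnrd1 and Srxn1 serve the thioredoxin branch of the programme. Srxn1 encodes sulfiredoxin, which reactivates overoxidised peroxiredoxins. At 24 h its signals were 881, 876 and 1051 in doxycycline-treated cells, against 995, 1243 and 1172 in control cells. At 48 h they were 867, 966 and 984 with doxycycline and 971, 1196 and 1017 in control cells. The doxycycline array was the lower one in every experiment, by a mean log2 ratio of -0.28 at 24 h (SE 0.0970, adjusted p 0.293) and -0.17 at 48 h (SE 0.0838, adjusted p 0.282). Without experiment 2 these were -0.17 and -0.11. A second Srxn1 probe set, 1384331_at, separated the groups, with 734, 574 and 671 in doxycycline-treated cells and 785, 929 and 751 in control cells at 24 h. At 48 h it read 579, 602 and 596 with doxycycline and 716, 752 and 775 in control cells. Its mean log2 ratios were -0.32 (adjusted p 0.363) and -0.34 (adjusted p 0.0741), so it did not pass either.

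Txnrd1 encodes cytosolic thioredoxin reductase, which passes electrons from NADPH to thioredoxin. At 24 h its signals were 2589.9, 3788 and 3175 with doxycycline and 2427, 3709 and 3912 in control cells, and at 48 h they were 3400.4, 3269 and 3236 with doxycycline and 3281, 3715 and 3303 in control cells. The groups overlapped and the experiments did not share a direction, with mean log2 ratios of -0.06 (95% interval -0.31 to 0.20) at 24 h and -0.05 (-0.26 to 0.16) at 48 h. A second probe set, 1386958_at, gave -0.08 at each of these times.

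Gsr and Me1 supply reduced glutathione and NADPH. Gsr encodes glutathione reductase. Its signals at 24 h were 333, 748 and 515 in doxycycline-treated cells and 465, 797 and 734 in control cells, with a mean log2 ratio of -0.36 (SE 0.107, 95% interval -0.63 to -0.09, adjusted p 0.241). At 48 h Gsr read 722, 622 and 464 with doxycycline and 709.6, 634 and 583 in control cells, and the mean log2 ratio was -0.11 (SE 0.0982, adjusted p 0.538), or -0.000901 without experiment 3. The spread of Gsr between the experiments of a group was wider than the gap between the groups. Within each experiment at 24 h, however, the doxycycline array was the lower one.

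Me1 encodes cytosolic malic enzyme, which makes NADPH and in β-cells takes part in pyruvate cycling. At 24 h its signals were 3432, 3083 and 2999.7 with doxycycline and 3845, 3407 and 3315 in control cells. The log2 ratios were -0.16, -0.14 and -0.14, the narrowest set among the members, with a mean of -0.15 (SE 0.0685, adjusted p 0.392). At 48 h the signals were 3153, 3058 and 3058 with doxycycline and 2954, 3066 and 3198 in control cells, with a mean of 0.01 (95% interval -0.18 to 0.20). A second Me1 probe set, 1370067_at, gave -0.14 at 24 h and -0.01 at 48 h.

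The remaining members act on NRF2 itself or with it. Nfe2l2, the gene of NRF2, had signals of 1272, 1511 and 1367 in doxycycline-treated cells and 1389, 1718 and 1566 in control cells at 24 h. At 48 h these were 1265, 1237 and 1352 with doxycycline and 1492, 1368 and 1302 in control cells. It was lower in 3 of 3 experiments at 24 h and 2 of 3 at 48 h, with mean log2 ratios of -0.17 (SE 0.0696, adjusted p 0.353) and -0.11 (SE 0.0880, adjusted p 0.495). NRF2 is controlled mainly through the stability of the protein, which these arrays do not measure.

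Mafg encodes a small MAF protein that pairs with NRF2 on DNA. At 24 h its signals were 685, 570.0 and 612 with doxycycline and 746, 506 and 564 in control cells. At 48 h they were 559, 653 and 727 with doxycycline and 436, 577 and 814 in control cells. The groups overlapped at both times, with mean log2 ratios of 0.05 (SE 0.0879, adjusted p 0.815) and 0.13 (SE 0.119, adjusted p 0.567). A second probe set, 1368874_a_at, gave -0.09 at 24 h and 0.13 at 48 h, so the probe sets of Mafg disagreed in sign at 24 h.

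Sqstm1 encodes p62, an autophagy receptor that binds KEAP1. At 24 h it read 8997, 9421 and 9545 in doxycycline-treated cells and 9479.6, 9038 and 8687 in control cells, with a mean log2 ratio of 0.04 (SE 0.0781, adjusted p 0.851). At 48 h it read 10040.3, 9620.4 and 9438 with doxycycline and 9527, 8069 and 8235 in control cells. It was higher in each experiment at 48 h, with log2 ratios of 0.08, 0.25 and 0.20 and a mean of 0.18 (SE 0.0763, adjusted p 0.241). A second probe set of lower signal, 1389381_at, had a mean of -0.02 at 48 h, so the probe sets of Sqstm1 disagreed in sign. The probe sets below the filter were not tested, with signals over the 18 arrays of 5.99 to 48.8 for 1381067_at (Srxn1), 68.0 to 124 for 1371221_at and 5.99 to 45.2 for 1371220_at (both Sqstm1), where 5.99 is the floor.

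**Figure D2:**
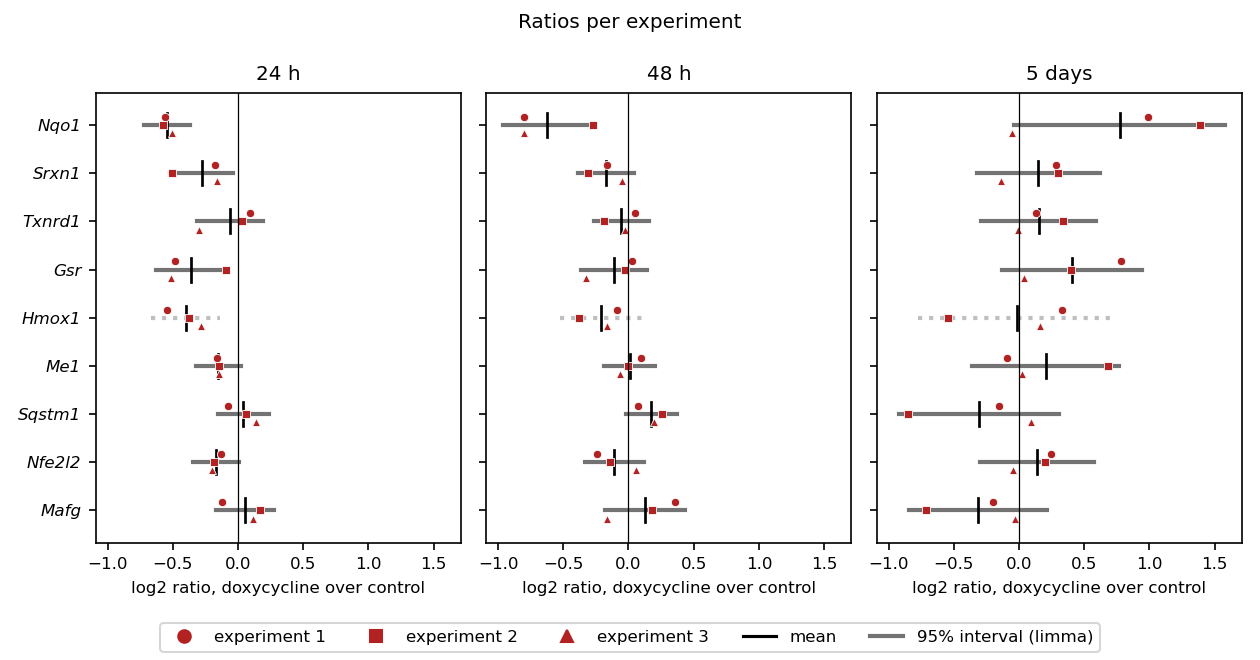
Log2 ratio of doxycycline over control for each gene, with a panel for each time. Symbols are the 3 experiments, the black tick is their mean and the grey bar is the 95% interval of limma (dotted for Hmox1, from the fit with no filter). At 24 h and 48 h the intervals of Nqo1 lie below 0, at -0.72 to -0.37 and -0.96 to -0.29.

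Across experiments, 5 of the 8 tested members were lower in 3 of 3 experiments at 24 h, namely Nqo1, Srxn1, Gsr, Me1 and Nfe2l2, against 20.3% of all probe sets. At 48 h these were Nqo1 and Srxn1, 2 of 8, against 25.4%, and at 5 days as labelled Mafg, 1 of 8, against 9.84%. With the labels of experiment 1 exchanged no member was lower in 3 of 3 at 5 days, against 14.5%. Nqo1 and Srxn1 were lower in all 6 experiments of 24 h and 48 h, 2 of 8, against 10.7% of all probe sets. The labels do not say whether experiments with the same number at 24 h and 48 h shared a culture, so these 6 may not be independent.

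The doxycycline effect was then compared between 48 h and 24 h in a limma fit of those 12 arrays. No member passed the test of this difference, and neither did any probe set (0% called), while at an unadjusted p under 0.05 there were 520 probe sets with a positive and 516 with a negative difference and no member. The largest difference among the members was 0.25 for Gsr (95% interval -0.11 to 0.62, adjusted p 0.798), and that of Nqo1 was -0.08 (-0.45 to 0.29, adjusted p 0.946).

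At 5 days the levels depended on the pairs described above. Nqo1 had signals of 281, 233 and 158 in the libraries labelled doxycycline and 141, 89.3 and 165 in those labelled control. It was higher in experiments 1 and 2 and lower in 3, with log2 ratios of 0.99, 1.39 and -0.06 and a mean of 0.77 (SE 0.315, adjusted p 0.935). The mean was 0.66 without experiment 1, 0.47 without experiment 2, 1.19 without experiment 3 and 0.11 with the labels of experiment 1 exchanged. As labelled, the values as deposited gave a mean of 0.56 for Nqo1. Gsr had 655, 392 and 597 in the libraries labelled doxycycline and 381, 298 and 580.2 in those labelled control, with a mean log2 ratio of 0.41 (SE 0.209, adjusted p 0.935). Without experiment 1 it was 0.22, without experiment 2 it was 0.41, without experiment 3 it was 0.59, and with the exchange it was -0.12. Hmox1 had 69.7, 88.9 and 69.2 in libraries labelled doxycycline and 55.4, 129 and 61.8 in those labelled control, with mean log2 ratios of -0.02 as labelled, -0.19 without experiment 1, 0.25 without experiment 2, -0.11 without experiment 3 and -0.24 with the exchange. With the values as deposited, not quantile normalized, its mean was -0.35 as labelled.

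Of the thioredoxin genes, Srxn1 read 915, 1041 and 874 in the libraries labelled doxycycline and 753, 846 and 961 in those labelled control, with a mean log2 ratio of 0.15 as labelled, 0.08 without experiment 1, 0.07 without experiment 2, 0.29 without experiment 3 and -0.04 with the exchange. Txnrd1 read 2678, 2976 and 3839 with doxycycline and 2445, 2361 and 3865 in control libraries, with means of 0.15, 0.16, 0.06, 0.23 and 0.06 in the same order. Both groups of values overlapped. Me1 read 2947, 4304 and 3273 with doxycycline and 3142, 2687 and 3216 in control libraries, with a mean of 0.20 as labelled, 0.35 without experiment 1, -0.03 without experiment 2, 0.29 without experiment 3 and 0.27 with the exchange.

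Among the regulators, Nfe2l2 read 1466, 1731 and 1431 in libraries labelled doxycycline and 1234, 1504 and 1475 in those labelled control, with a mean log2 ratio of 0.14 as labelled, 0.08 without experiment 1, 0.10 without experiment 2, 0.23 without experiment 3 and -0.03 with the exchange. Sqstm1 read 7720.1, 6061 and 8424 with doxycycline and 8594, 10924 and 7912 in control libraries, with means of -0.30, -0.38, -0.03, -0.50 and -0.20 in the same order. Mafg read 589.7, 401 and 546 with doxycycline and 677, 658 and 558 in control libraries, with means of -0.32, -0.37, -0.12, -0.46 and -0.18. None of the 8 tested members passed under any of these choices.

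The doxycycline library of experiment 2 at 5 days, which had the high GAPDH 3′ to 5′ ratio, also split probe sets of the same gene. There Txnrd1 read 2976 on 1398791_at but 1047 on 1386958_at, Srxn1 read 1041 on 1372510_at but 165 on 1384331_at, and Mafg read 401 on 1372024_at and 71.4 on 1368874_a_at. On the second of each of these, the other libraries at 5 days read 2462 and 3299 with doxycycline and 2119.9 to 2951 in controls for Txnrd1, 687 and 605 with doxycycline and 582 to 686 in controls for Srxn1, and 298 and 257 with doxycycline and 335 to 399 in controls for Mafg. Sqstm1 was low there on both of its probe sets above the filter, and on 1389381_at it read 1632, against 3845 and 4077 with doxycycline and 3865 to 4885 in controls of the other libraries. The part of RNA quality in the 5-day values of this experiment was not tested beyond leaving it out.

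**Figure D3:**
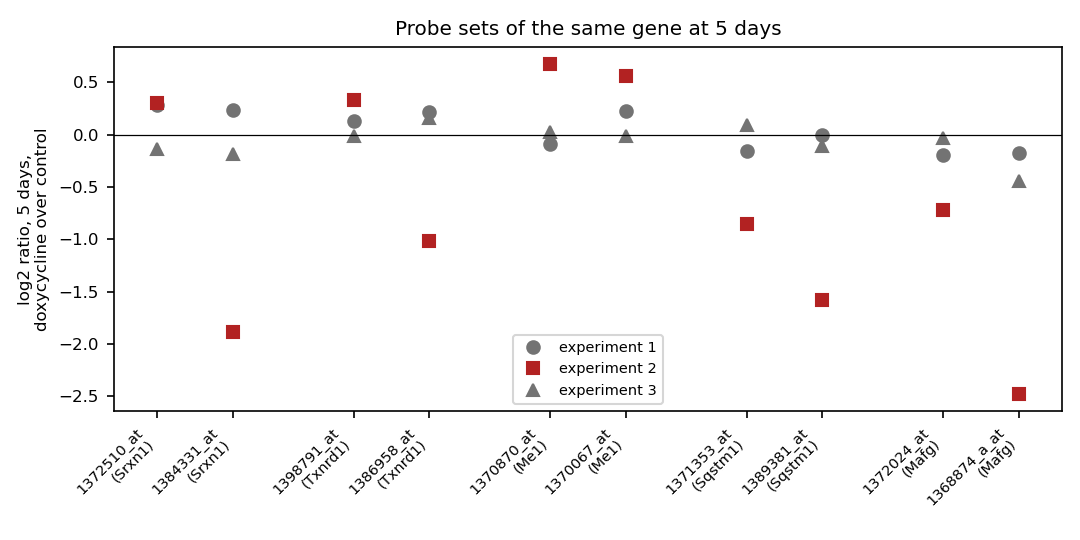
Log2 ratio of doxycycline over control at 5 days for 10 probe sets of the 5 members that have more than 1 above the signal filter, the probe set of highest signal first for each gene. Experiment 2 is in red. It lies more than 1 below experiments 1 and 3 on 1368874_a_at (-2.48), 1384331_at (-1.89), 1389381_at (-1.58) and 1386958_at (-1.02), and departs by less on 1371353_at (-0.85), 1372024_at (-0.72) and 1370870_at (0.68).

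The other genes of the NRF2 pathway, 44 in a list that was drawn up by function, were set beside the members. A probe set with a single gene was found for 39, and 29 were tested. None passed at 24 h, 1 was higher and none lower at 48 h, and none passed at 5 days, with median log2 ratios of -0.07, -0.06 and 0.10. With the labels of experiment 1 exchanged the 5-day median was 0.11. Their shares stand beside the same background as those of the members, 2.33% higher and 1.19% lower at 48 h. Of 13 other antioxidant enzymes, such as superoxide dismutases, catalase and glutathione peroxidases, 11 were tested, none passed at any time, and the medians were 0.01, -0.01 and 0.06, the last of them -0.04 with the exchange.

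The gene that passed was Slc7a11, the cystine importer that feeds glutathione synthesis and is also a known target of ATF4. At 24 h its signals were 395, 366 and 336 in doxycycline-treated cells and 208, 49.8 and 54.1 in control cells, with a mean log2 ratio of 2.14 (SE 0.380, adjusted p 0.123). At 48 h Slc7a11 read 527, 447 and 438 with doxycycline and 28.4, 29.8 and 45.6 in control cells. The groups were far apart, and the transporter gene was higher by a mean log2 ratio of 3.79 (SE 0.191, adjusted p 0.00669). All 3 control signals at 48 h lay below 121.5, the signal of the filter, which Slc7a11 passed through its higher arrays, so the size of the ratio rests on dim values. Without experiment 1 the mean was 3.58 and did not pass (adjusted p 0.116), and without experiment 2 or 3 the adjusted p was 0.0470 and 0.00789. At 5 days it read 91.0, 784 and 393 in libraries labelled doxycycline and 603, 763 and 41.6 in those labelled control, so experiment 1 ran opposite to experiment 3. The mean log2 ratio was 0.18 as labelled and 2.00 with the exchange (adjusted p 0.987 and 0.715). It was 1.64 without experiment 1, 0.26 without experiment 2 and -1.34 without experiment 3. Of the genes for the subunits of the ligase that limits glutathione synthesis, Gclc had log2 ratios of 0.09, 0.01 and 0.03 at 48 h (adjusted p 0.745) and Gclm had -0.08, -0.08 and -0.08 (adjusted p 0.519).

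Trib3 and Ddit3 of the ATF4 and CHOP list were also higher at 48 h. The log2 ratios of Trib3 were 4.26, 3.64 and 3.63 and those of Ddit3 were 1.72, 1.84 and 1.72, each with an adjusted p of 0.00669. Among the genes of the pathway and antioxidant lists above the signal filter, Abcc4 and Blvra had the next largest differences at 48 h. Below the filter 8 genes of these lists had differences larger than that of Blvra, from 0.48 up to 1.45 for Bach1. Their adjusted p by limma was 0.344 or more when all probe sets were tested. Abcc4, the gene of an export pump, read 754, 978 and 926 with doxycycline and 643, 710.0 and 523 in control cells (mean log2 ratio 0.51, adjusted p 0.103). Blvra, which encodes biliverdin reductase downstream of heme oxygenase, read 333, 266 and 213 with doxycycline and 400.0, 380.3 and 329.5 in control cells (mean log2 ratio -0.47, adjusted p 0.0733). Keap1, the gene of the NRF2 inhibitor, had log2 ratios of 0.01, 0.33 and 0.23 at 48 h (adjusted p 0.284).

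**Figure D4:**
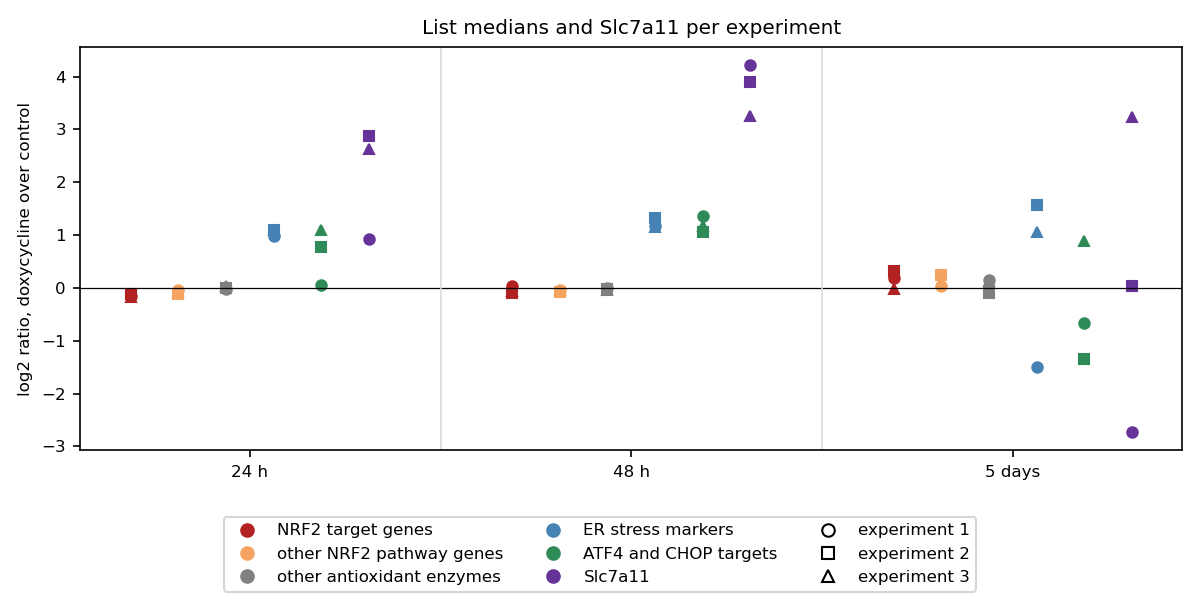
Median log2 ratio of doxycycline over control per experiment for 5 gene lists, and the ratio of Slc7a11, in the order of the times. The members and the other antioxidant lists lie near 0 at 24 h and 48 h, where the ER stress markers lie between 0.99 and 1.33, and at 5 days experiment 1 of the ER stress markers lies at -1.49.

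Over all 18 arrays the members did not form a single pattern. The highest Pearson correlations of log2 signal were 0.77 between Txnrd1 and Gsr and 0.70 between Nqo1 and Gsr, while Nfe2l2 and Mafg had -0.68 and Sqstm1 and Me1 -0.61. The doxycycline library of experiment 2 at 5 days had the lowest Sqstm1 (6061) and the highest Me1 (4304) of the 18 arrays. The correlations between members were not computed without it, so how far they rest on this library was not tested. The genes most like Nqo1 outside the list were Atp6v0e1 (0.89) and Dync1i1 (0.86), and those most like Txnrd1 were Aacs (0.93) and Top1 (0.90). Srxn1 was most like Psmd12 (0.84) and Rab12 (0.83), and Gsr was most like Psmc3 (0.89) and Tpm3 (0.86). For Sqstm1 these were Tspan5 (0.91) and Eprs1 (0.90), for Me1 Cyb561 (0.85) and Stx7 (0.85), for Mafg Ccnt2 (0.82) and Larp1 (0.82), and for Nfe2l2 Bloc1s5 (0.83) and Gcfc2 (0.79). The ranking of these genes changed when 1 library was left out, and no other library was left out for comparison. Without the doxycycline library of experiment 2 at 5 days, 3 of these 16 genes (Aacs, Tspan5 and Tpm3) were still among the 2 most like their member. The correlations of Eprs1, Stx7 and Ccnt2 were then 0.80, 0.73 and 0.74. Those of Atp6v0e1, Dync1i1, Top1 and Psmc3 hardly moved, at 0.89, 0.86, 0.90 and 0.89, and that of Tpm3 was 0.92. The 18 arrays share experiments and times, so these correlations are descriptions.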

How the data were processed

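RNA of clone #4S2 cells from 3 independent experiments was measured by the authors on Rat Genome 230 2.0 arrays (Affymetrix) in 6 groups. The deposited values are linear signal intensities, scaled by the authors so that the 2% trimmed mean of an array lies near 500.14. The study analysed them in GeneSpring 7.1. The probe summary method and its background correction were unstated (not given in the sources used here). Groups came from the labels. Same-numbered doxycycline and control arrays of a time formed a pair, because the study compares within independent experiments. As a check of the pairs, the correlation of the 2 arrays' deviations from their group means was computed. It was 0.667, 0.484 and 0.662 for the pairs of 24 h, 0.578, 0.256 and 0.359 for those of 48 h, and 0.149, 0.142 and 0.109 for the 5-day pairs. Identical arrays were not found.

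From 31099 probe sets 57 controls were removed. The platform annotation gives 1 gene to 20826 of the rest, several to 436 and none to 9780, and 20758 of the first were found in GRCr8 by gene number. Probe sets with several genes named none. The probe set with the highest mean signal stood for its gene. After quantile normalization, values below the 10th percentile (5.99) were raised to it and log2 transformed. Limma 3.58.1 in R 4.3.3 tested the 15521 probe sets in the upper 50% of mean log2 signal, each time alone with its 3 pairs as blocks. Adjustment was by Benjamini-Hochberg over all of them, at 0.05. The difference between 48 h and 24 h was a contrast in a fit of 12 arrays. Detection calls were not used. The procedure was tested on simulated data. Alternatives were no replicate block, values as deposited, a floor at the 25th percentile, no filter, all 18 arrays or those of 24 h and 48 h, the methods' t-test, the median over the probe sets of a gene, exchanged labels in experiment 1 at 5 days, and leaving out each experiment. The fit of all arrays with exchanged labels, the Gsr contrast and the correlations without 1 library were added after seeing the data.

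The members and the gene lists were chosen with earlier results of these data known. Named beside the members are the genes of the pathway lists that passed at any time, the 3 with the largest difference at 48 h, 4 genes that check the ER stress response, and the 2 genes most correlated with each member. Keap1, Gclc, Gclm and Bach1 were named after their values were seen. Some genes of the lists, Prdx1, Fth1, Ftl1, Ugt1a6 and Pcsk1 among them, were not analysed here.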

Additional observations from a re-analysis of the deposited data

Results flagged for a closer look

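Gsr had opposite signs at 24 h and 5 days. All 3 experiments at 24 h were lower with doxycycline, with log2 ratios of -0.48, -0.09 and -0.51, and all 3 at 5 days were higher as labelled, with 0.78, 0.40 and 0.04. The effect at 5 days exceeded that at 24 h by 0.768 on the log2 scale (SE 0.215). In a limma fit of all 18 arrays this difference had an adjusted p of 0.629, with an unadjusted p of 0.00622 and no probe set called. With the labels of experiment 1 at 5 days exchanged, the difference was 0.25 (adjusted p 0.777) and the 5-day ratio itself was -0.12. The turn was not particular to Gsr. As labelled, the means of Nqo1, Srxn1, Me1, Nfe2l2 and Txnrd1 also went from negative at 24 h to positive at 5 days. Those of Sqstm1 and Mafg went from positive to negative. The mean of Nqo1 moved further than that of Gsr, from -0.55 to 0.77. The contrast was run for Gsr alone and was added after seeing the data.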

How the results depend on the processing

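The count of members higher with doxycycline was 0 at every time and under every alternative run. The count lower was 0, except for 1 member (Nqo1) at 24 h with the median over the probe sets of a gene and 1 (Nqo1) at 48 h with the 24 h and 48 h arrays in the fit. Without the replicate block the counts stayed at 0, and the adjusted p of Nqo1 was 1.00 at 24 h and 0.300 at 48 h, so the pairing moved no call.

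For the 8 tested members, direction and side of the threshold held in 82 values at 24 h (5 turned in sign, 1 passed), 84 at 48 h (3 and 1), 87 at 5 days (9 and 0) and 51 for the difference between 48 h and 24 h (5 and 0). With the median over probe sets those that turned were Sqstm1 (-0.0167) and Mafg (-0.0157) at 24 h, Me1 (-0.0018) at 48 h, and Txnrd1 (-0.0312) and Srxn1 (-0.23) at 5 days, where their second probe sets read low in the doxycycline library of experiment 2. With the labels of experiment 1 at 5 days exchanged, by either fit, they were Srxn1 (-0.0394), Gsr (-0.12) and Nfe2l2 (-0.0300). Leaving out each experiment in turn gave ranges that cross 0 for Mafg (-0.0033 to 0.14), Txnrd1 (-0.14 to 0.0621) and Sqstm1 (-0.0077 to 0.10) at 24 h, for Me1 (-0.0344 to 0.0449) and Txnrd1 (-0.11 to 0.0112) at 48 h, and for Me1 (-0.0338 to 0.35) and the untested Hmox1 (-0.19 to 0.25) at 5 days. For the difference of 48 h minus 24 h they were -0.27 to 0.0272 for Nqo1, -0.14 to 0.25 for Mafg, -0.13 to 0.11 for Txnrd1 and -0.0353 to 0.15 for Nfe2l2. The cause of these turns was not tested. The signal of Hmox1, below the filter, limits what can be read from it.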
